A study of Mus musculus with 15 samples.

Results

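Matrix metalloproteinases, the related ADAMTS proteases and their TIMP inhibitors were followed in cultured mouse mammary epithelial cells that had lost p53, p53 and Rb, or had in addition been given a MYC retrovirus. The members were the genes whose symbol is Mmp, Adamts or Timp followed by a number and that had a probe set naming them alone. This gave 44 of the 19938 genes analysed, 22 of them Mmp, 18 Adamts and 4 Timp genes. Of the 44, 41 had 1 probe set and 3 had several, for which the probe set with the highest mean over all arrays was taken. Mmp15 and Adamts2 were not analysed here.

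RNA of proliferating cultures was hybridised to Affymetrix Mouse Gene arrays, with 15 arrays in 5 groups of 3. The cells came from female mice 8 weeks old. WT cells were wild type for p53, Rb and MYC. In p53- cells p53 was deleted, and in p53- Rb- cells both p53 and Rb, by Cre recombinase delivered with an adenovirus. The p53- Myc+ and p53- Rb- Myc+ groups combined the same deletions with retroviral MYC overexpression, so the controls of the MYC comparisons lacked p53 as well. All cells grew in medium with horse serum, EGF, insulin, cholera toxin and hydrocortisone. The labels do not say whether WT cells received a control virus, whether a group came from 1 or several infected populations, or whether its 3 samples came from separate mice or cultures. The p-values therefore speak only of the variation among these samples, and technical variation may be part of it.

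Matrix metalloproteinases are zinc enzymes that are made as inactive proforms and, once cleaved, cut collagens, laminins, proteoglycans and other extracellular proteins. ADAMTS proteases are secreted relatives, several of which cut the proteoglycans aggrecan and versican, and TIMPs bind to and block the active enzymes. In the mammary gland these proteins are known for remodelling of the stroma and basement membrane during branching and involution.

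Values are probe set intensities on a linear scale. A change is a difference of log2(intensity + 16) between group means, given with its standard error, so it understates the change of dim genes. The threshold was an adjusted p of 0.05 in limma (Benjamini-Hochberg, all 19938 genes), and only genes past it are said to have risen or fallen. Array medians ran from 41.28 to 54.9. Changes are read within a gene, since probe sets differ in brightness. In sums over several genes the brightest probe sets weigh most. Levels set against other genes, or against the median or lower quartile of all genes, are only a rough guide.

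The labels were checked on Rb1 and Myc, though no source used here gives the parts of these genes that the probes cover. The mean Rb1 intensity was 92.79 ± 9.57 for WT, 161.5 ± 17.3 for p53-, 57.39 ± 6.07 for p53- Rb-, 36.43 ± 10.8 for p53- Myc+ and 18.74 ± 1.09 for p53- Rb- Myc+ arrays (SD, n = 3 each). It was thus also low in the arrays labelled p53- Myc+, whose label leaves Rb intact. Myc had means of 887.8, 929.8 and 855.7 in the 3 groups without the retrovirus and of 128.2 and 96.29 in the arrays labelled p53- Myc+ and p53- Rb- Myc+. Its intensity was therefore lower where the label gives MYC overexpression, and the directions below rest on the labels. The labelled cell type was checked on epithelial markers. The adhesion molecule Epcam averaged between 1627 and 1682 in the 3 groups without the retrovirus, but 10.26 and 11.57 in the arrays labelled Myc+. The summed intensity of 8 luminal markers was 12160 to 13280 without the retrovirus and 152.8 to 672.9 with it. That of 8 basal markers was 6382 to 10420 and 1833 to 2631. Acta2 made up most of the basal sum where the retrovirus was given, with means of 2321 without the Rb- label and 1807 with it. Mylk averaged 114.6 and 112.3 there. The Myc+ group means of Krt5, Krt14, Krt17, Trp63, Cdh3 and Cnn1 lay between 3.055 and 21.71. The epithelial label was therefore not borne out by most of its markers in the 6 arrays labelled Myc+. In bulk RNA, fewer cells of a type and less RNA per cell cannot be told apart.

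Of the 44 members, 30 passed in at least 1 of the 6 comparisons of 2 groups, and 20 of those also reached the median intensity of all genes, 63.21, in at least 1 group. These 20 are given array by array. The share of all genes that passed in any of the 6 was not counted, so the 30 are not read as a trait of the family. In the single comparisons 4.69% to 36.3% of all genes passed. The 14 that passed in none were Adamts10, Adamts13, Adamts16, Adamts17, Adamts18, Adamts20, Adamts3, Adamts7, Mmp17, Mmp1a, Mmp20, Mmp25, Mmp27 and Mmp28. Over all 15 arrays, Mmp1a, an interstitial collagenase gene, lay between 2.8 and 17.65. Mmp17, which encodes a lipid-anchored enzyme, ran from 85.3 to 180.5 and Adamts13, the protease of von Willebrand factor, from 52.3 to 147.3. The summed intensity of the 22 Mmp genes was 4802 to 5375 for WT, 4798 to 5131 for p53-, 5908 to 6411 for p53- Rb-, 2805 to 3123 for p53- Myc+ and 1993 to 2027 for p53- Rb- Myc+ arrays. That of the 4 Timp genes was 4070 to 7831 in the arrays without the retrovirus and 2011 to 2451 in those with it. The Adamts sums overlapped, at 1266 to 2022 and 1128 to 1377.

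**Figure D1:**
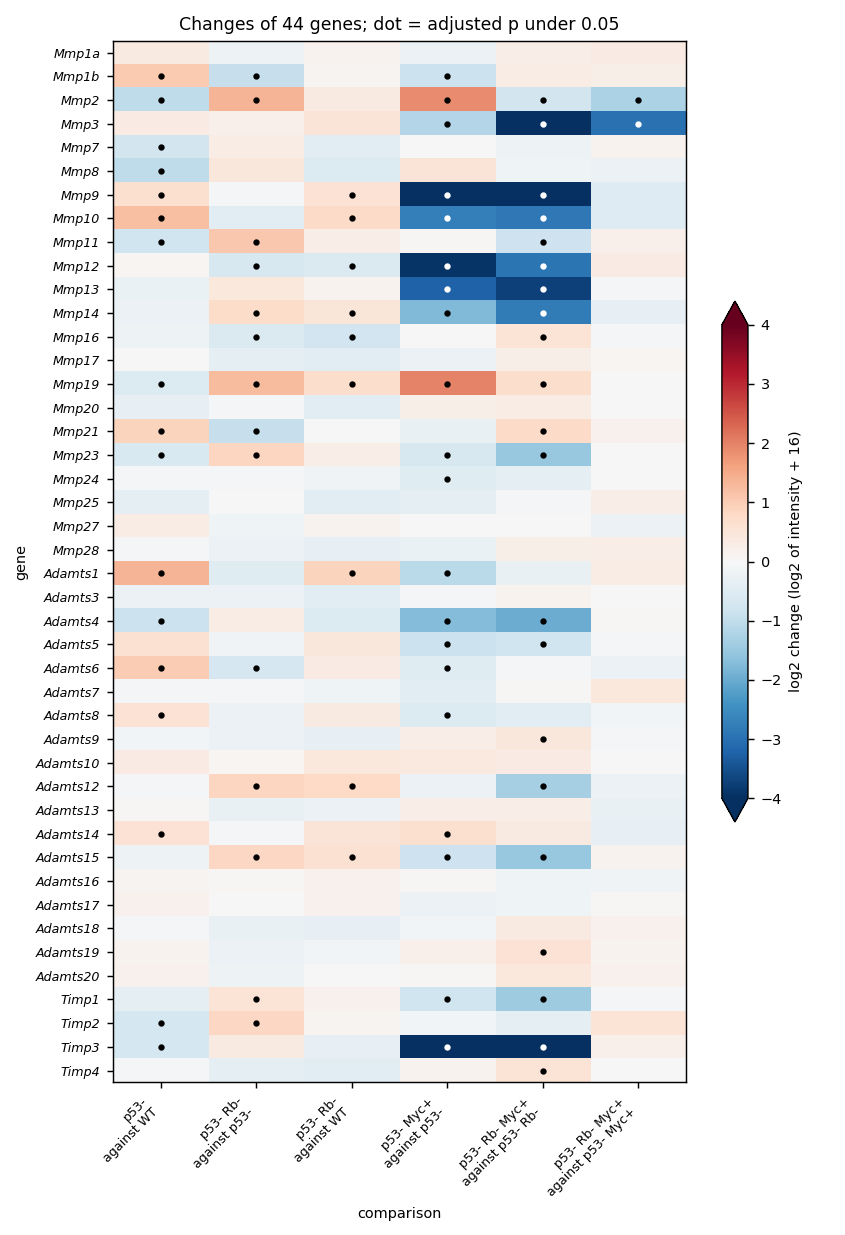
Log2 changes of all 44 members (rows) in the 6 comparisons of 2 groups (columns), with higher values in red and lower values in blue. A dot marks an adjusted p under 0.05 in limma. The largest falls are those of Timp3 (-5.85 and -6.01) and Mmp9 (-4.95 and -5.44) in the 2 MYC comparisons. They lie beyond the end of the colour scale, as does Mmp3 in p53- Rb- Myc+ against p53- Rb- arrays (-4.33).

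The widest changes followed the Myc+ label. In p53- Myc+ against p53- arrays, 3 members rose and 17 fell, or 6.82% and 38.6% of the 44, beside 13.1% and 20.2% of all genes, with 33.3% of all genes passing in either direction. In p53- Rb- Myc+ against p53- Rb- arrays, 6 rose and 15 fell, or 13.6% and 34.1%, beside 17.6% and 18.7% of all genes and 36.3% in either direction. Group values did not overlap for 24 members in the first (42.6% of all genes) and 28 in the second (51.2%). These 2 comparisons share no array. The gelatinase Mmp9, the stromelysins Mmp3 and Mmp10, the metalloelastase Mmp12, the collagenase Mmp13, the membrane-anchored Mmp14 and the inhibitors Timp1 and Timp3 fell in both. In all 12 members fell in both, which is 70.6% of those that fell without the Rb- label and 80% of those that fell with it. The same overlap was not counted over all genes, so these shares are not read as particular to the members. Mmp19 alone rose in both, and Mmp2 rose in the first and fell in the second. The median change of the members was -0.25 and -0.17, against -0.09 and 0.12 over all genes.

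The gelatinases are Mmp9 and Mmp2, which cut denatured collagen and the type IV collagen of basement membranes. For Mmp9, WT arrays measured 588.3, 579.9 and 741.9, p53- arrays 923.2, 1123 and 930.2, p53- Rb- arrays 971.5, 976 and 934.5, p53- Myc+ arrays 20.15, 20.14 and 10.33, and p53- Rb- Myc+ arrays 5.134, 6.753 and 7.568. All arrays with the retrovirus lay far below all others, and the p53- Rb- Myc+ arrays lay below the p53- Myc+ arrays. Mmp9 fell in p53- Myc+ against p53- arrays (-4.95 ± 0.16, adjusted p = 2.13e-16) and in p53- Rb- Myc+ against p53- Rb- arrays (-5.44 ± 0.16, adjusted p = 5.77e-17). Mmp2 intensities in WT arrays were 503.9, 529.1 and 553.1, p53- arrays 247.6, 269.1 and 242.6, p53- Rb- arrays 563.2, 624.4 and 887, p53- Myc+ arrays 1008, 1128 and 851.8, and p53- Rb- Myc+ arrays 422.1, 423.4 and 369.8. Here the p53- Myc+ arrays were the highest but for 1 p53- Rb- array, and the p53- arrays the lowest. Mmp2 rose in p53- Myc+ against p53- arrays (1.90 ± 0.17, adjusted p = 5.68e-09) and fell in p53- Rb- Myc+ against p53- Rb- arrays (-0.72 ± 0.17, adjusted p = 0.00183). The 2 gelatinases thus moved in opposite directions with the Myc+ label where Rb was intact by label, and in the same direction where it was not.

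The stromelysins cut proteoglycans, laminin and fibronectin, and can activate other proforms. The Mmp3 probe set read in WT arrays 629.1, 585.3 and 701.1, p53- arrays 969.1, 598.6 and 883.5, p53- Rb- arrays 873.8, 909.9 and 969.9, p53- Myc+ arrays 341, 322.5 and 377.2, and p53- Rb- Myc+ arrays 37.05, 24.64 and 30.28. The p53- arrays overlapped both WT and p53- Rb- arrays, and below these the 2 groups with the retrovirus lay apart from each other. Mmp3 fell in both comparisons (-1.17 ± 0.18, adjusted p = 1.21e-05 and -4.33 ± 0.18, adjusted p = 8.26e-15). WT arrays gave Mmp10 intensities of 68.58, 113.8 and 105.9, p53- arrays 232.4, 206.8 and 281.6, p53- Rb- arrays 209.5, 170.3 and 146.6, p53- Myc+ arrays 19.35, 24.69 and 21.42, and p53- Rb- Myc+ arrays 17.04, 5.833 and 9.356. Every array with the retrovirus was below every array without it. Mmp10 fell by 2.75 and 2.85 on the log2 scale (SE 0.19, adjusted p = 9.78e-11 and SE 0.19, adjusted p = 5.31e-11).

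Mmp12 cuts elastin and is best known from macrophages, and Mmp13 cuts fibrillar collagens. For Mmp12, WT arrays measured 278, 250.7 and 338, p53- arrays 299.5, 280.8 and 327.4, p53- Rb- arrays 215.5, 217.4 and 141, p53- Myc+ arrays 3.798, 9.886 and 2.418, and p53- Rb- Myc+ arrays 7.96, 15.1 and 9.899. Mmp13 intensities in WT arrays were 174.1, 228.9 and 278.6, p53- arrays 169.5, 236.4 and 149.9, p53- Rb- arrays 229.4, 257.1 and 260.7, p53- Myc+ arrays 10.59, 0.002391 and 6.701, and p53- Rb- Myc+ arrays 3.626, 4.896 and 3.335. For both genes the 6 arrays with the retrovirus lay below the other 9 with a wide gap, and the 2 Myc+ groups overlapped. Mmp12 changed by -3.91 ± 0.19, adjusted p = 1.01e-13 and by -2.93 ± 0.19, adjusted p = 1.62e-11. The changes of Mmp13 were -3.22 ± 0.20, adjusted p = 1.12e-11 and -3.73 ± 0.20, adjusted p = 8.74e-13. Leukocyte markers moved with the label too. Of 8, 5 fell in p53- Myc+ against p53- and 3 in p53- Rb- Myc+ against p53- Rb- arrays, and their summed intensity was 546.6 to 822.9 in the p53- and p53- Rb- arrays and 190.3 to 279.9 in both Myc+ groups. The pan-leukocyte marker Ptprc averaged 43.1, 25.75, 31.64 and 37.31 in p53-, p53- Rb-, p53- Myc+ and p53- Rb- Myc+ arrays. The part of these cells in the change of Mmp12 was not tested.

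**Figure D2:**
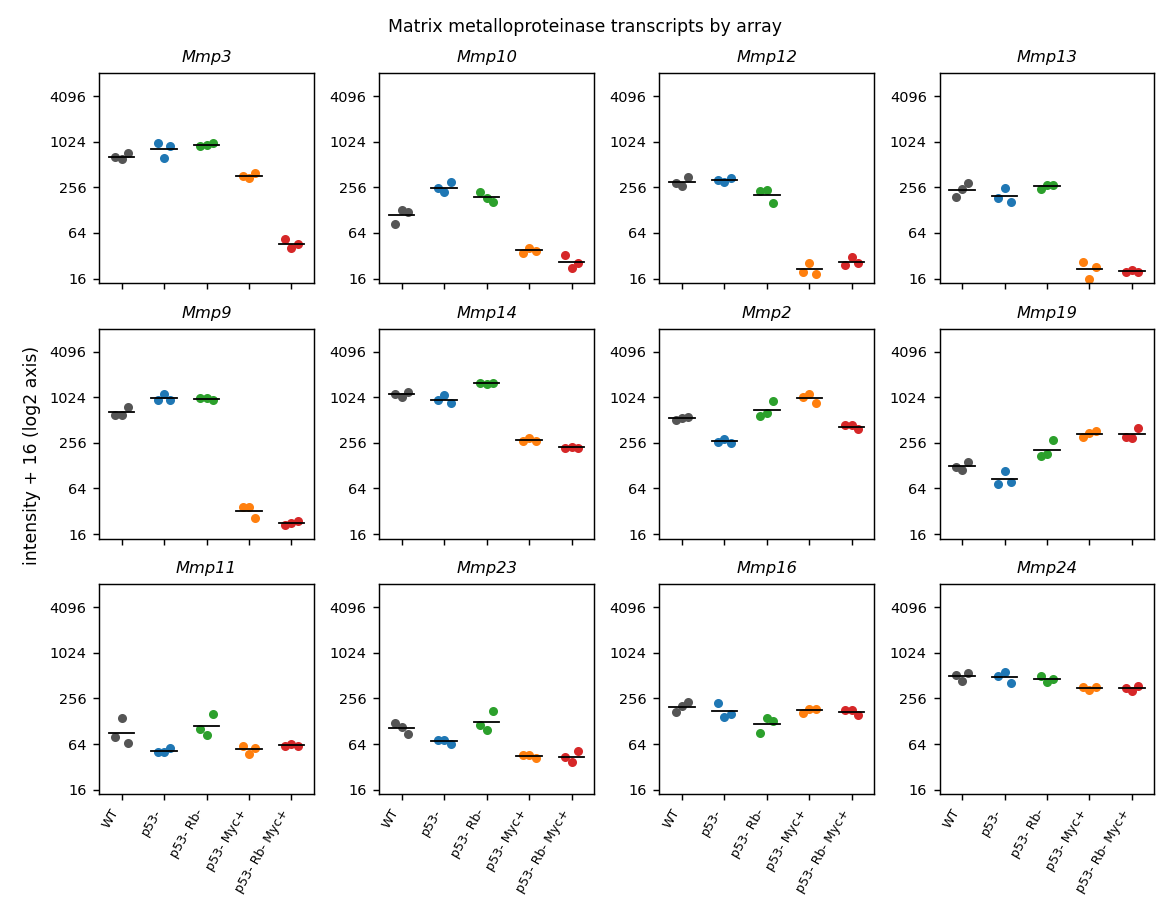
Intensity plus 16 of the Mmp members given array by array, on a log2 axis, with 1 point for each of the 3 arrays of a group and a bar at their mean. For Mmp9, Mmp10, Mmp12 and Mmp13 the Myc+ arrays lie below all others, while Mmp19 is higher in them and the mean of Mmp2 is highest in the p53- Myc+ arrays.

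Mmp13, Mmp12, Mmp1b, Mmp3, Mmp1a, Mmp10, Mmp8, Mmp27, Mmp20 and Mmp7 stand in this order as 10 neighbouring members on chromosome 9. With the Myc+ label 5 of the 10 fell and 0 rose without the Rb- label, and 4 fell and 0 rose with it. Over all genes 20.2% fell and 13.1% rose in the first comparison, and 18.7% fell and 17.6% rose in the second. Those that fell in both were Mmp13, Mmp12, Mmp3 and Mmp10, and Mmp1b fell in the first alone (-0.85 ± 0.22, adjusted p = 0.00364). Mmp1b was dim throughout, from 0.8923 to 31.34 over all 15 arrays. Mmp8, known as neutrophil collagenase, and Mmp7, or matrilysin, did not pass in either MYC comparison (0.51 ± 0.21, adjusted p = 0.0713 and -0.03 ± 0.23, adjusted p = 0.94 without the Rb- label). The neighbours thus did not all move with the label. Mmp27, Mmp20 and Mmp1a passed in none of the 6 comparisons.

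**Figure D3:**
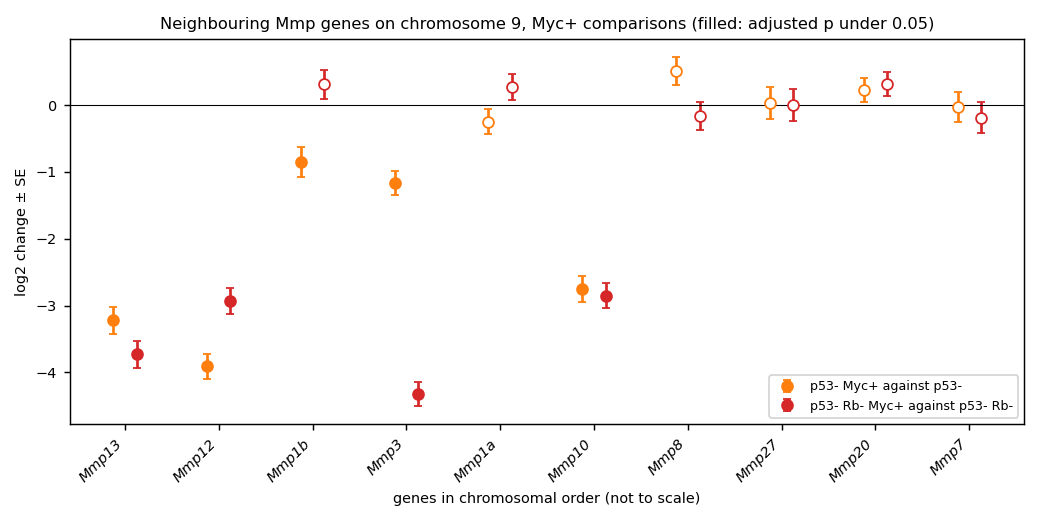
Log2 changes of the 10 neighbouring Mmp genes of chromosome 9 in the 2 MYC comparisons, in the order in which they lie (not to scale). Bars are the standard error from limma, and filled points mark an adjusted p under 0.05. Mmp13, Mmp12, Mmp3 and Mmp10 lie between -1.17 and -4.33, and the points of Mmp1a, Mmp27 and Mmp20 are not filled.

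The promoters of the 4 chromosome 9 neighbours that fell in both MYC comparisons are shown because each holds a match to the AP-1 motif TGANTCA. AP-1 is a dimer of Fos and Jun proteins known to act on metalloproteinase genes. The sequences are the 250 bases before the transcription start in RefSeq on GRCm38.p6, plus strand, with the motif in capitals. Mmp13 is at chr9:7272264-7272513, Mmp12 at chr9:7347124-7347373 (the second of its 2 listed starts), Mmp3 at chr9:7445572-7445821 and Mmp10 at chr9:7502092-7502341.
Mmp13: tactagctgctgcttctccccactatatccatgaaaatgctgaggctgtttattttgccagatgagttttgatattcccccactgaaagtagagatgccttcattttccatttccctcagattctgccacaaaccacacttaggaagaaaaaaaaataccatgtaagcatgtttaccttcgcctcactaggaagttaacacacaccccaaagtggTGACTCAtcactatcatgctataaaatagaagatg
Mmp12: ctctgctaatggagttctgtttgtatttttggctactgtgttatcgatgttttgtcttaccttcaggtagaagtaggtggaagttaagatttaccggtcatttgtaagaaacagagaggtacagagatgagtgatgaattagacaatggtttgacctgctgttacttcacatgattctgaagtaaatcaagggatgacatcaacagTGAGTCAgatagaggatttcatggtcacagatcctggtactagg
Mmp3: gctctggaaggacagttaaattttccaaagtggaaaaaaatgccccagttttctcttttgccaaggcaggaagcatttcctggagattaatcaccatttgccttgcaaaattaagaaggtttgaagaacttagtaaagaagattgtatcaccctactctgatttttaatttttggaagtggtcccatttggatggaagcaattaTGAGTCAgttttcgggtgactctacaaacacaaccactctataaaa
Mmp10: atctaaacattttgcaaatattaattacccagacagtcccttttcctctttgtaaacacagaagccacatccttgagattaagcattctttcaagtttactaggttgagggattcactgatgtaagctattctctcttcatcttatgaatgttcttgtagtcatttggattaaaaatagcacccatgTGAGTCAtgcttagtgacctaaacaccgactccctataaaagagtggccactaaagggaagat
The motif begins 35, 44, 46 and 63 bases before the start, in the order Mmp13, Mmp12, Mmp3 and Mmp10. The first start of Mmp12 has none in its window. Of the 30 members with an entry, 8 hold the motif on either strand, all of them among the 10 neighbours of chromosome 9. Of the other 20 members with an entry 0 do, among them Timp3, which also fell in both MYC comparisons. Mmp9, Adamts4 and Adamts5, which fell in both as well, had no entry and were not searched. The search therefore does not show whether the motif is confined to the chromosome 9 neighbours. Among 32851 promoters of the same length, 6.75% hold it. This share and those below count every listed start by itself, while a member counts if any of its starts holds the motif. The counts and the shares are therefore not in the same unit. The 8 include Mmp1a, Mmp20 and Mmp7, which passed in neither MYC comparison, so the motif was not shared by falling genes only. The E-box CACGTG, a sequence bound by MYC with its partner MAX, was found in 2 of the 30, Adamts17 and Mmp7, beside 6.02% of all promoters, and TATAAA in 9 of the 30, beside 12.4%. All motifs were searched on both strands, and none of the 3 contains another. These matches describe the letters in the window and not binding.

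AP-1 genes were followed together with ETS factors, which are known to act beside AP-1 on such promoters. Of 11 AP-1 and ETS genes, 9 fell and 1 rose without the Rb- label and 10 fell and 1 rose with it. Fos fell, with changes of -2.15 and -2.29, Etv4 with -1.57 and -1.63 and Ets2 with -1.16 and -1.08 on the log2 scale. Fosl1, another Fos family member, was the one that rose, and is named after its values were seen (0.74 ± 0.18, adjusted p = 0.00294 and 0.54 ± 0.18, adjusted p = 0.0264). Whether these levels bear on the metalloproteinases was not tested.

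Mmp14 anchors in the plasma membrane, cuts collagen at the cell surface and activates the proform of Mmp2. The Mmp14 probe set read in WT arrays 1108, 1016 and 1185, p53- arrays 912, 1068 and 840.8, p53- Rb- arrays 1578, 1531 and 1552, p53- Myc+ arrays 253.7, 281.8 and 258.3, and p53- Rb- Myc+ arrays 204.4, 211.5 and 205.9. The 5 groups did not overlap, except WT with p53-. Mmp14 fell in both MYC comparisons (-1.76 ± 0.15, adjusted p = 1.58e-09 and -2.81 ± 0.15, adjusted p = 5.33e-13). Mmp2 and its activator therefore moved in opposite directions in p53- Myc+ against p53- arrays. WT arrays gave Mmp24 intensities of 501.7, 423.2 and 540.4, p53- arrays 485.5, 552.2 and 392.6, p53- Rb- arrays 484, 410.9 and 440.2, p53- Myc+ arrays 341.3, 309.5 and 346.3, and p53- Rb- Myc+ arrays 331.3, 308.4 and 359.6. Mmp24 is another membrane-anchored enzyme, known from the nervous system. It fell in the first comparison (-0.49 ± 0.16, adjusted p = 0.0218), while the second gave -0.40 ± 0.16, adjusted p = 0.0563. For Mmp16, WT arrays measured 155, 186.4 and 214.4, p53- arrays 209.4, 129.4 and 142, p53- Rb- arrays 72.49, 124.5 and 112.5, p53- Myc+ arrays 148.6, 168.9 and 167.1, and p53- Rb- Myc+ arrays 165.7, 162.4 and 140.3. Mmp16 is a further membrane-anchored enzyme, and its p53- Rb- arrays were the lowest. It rose in p53- Rb- Myc+ against p53- Rb- arrays (0.56 ± 0.19, adjusted p = 0.0282), and its change without the Rb- label was 0.03 ± 0.19, adjusted p = 0.917.

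Mmp23 has a less common domain structure, and Mmp11 is cleaved to its active form inside the cell. Mmp19 intensities in WT arrays were 105.7, 96.9 and 127, p53- arrays 56.5, 91.52 and 62.49, p53- Rb- arrays 153.6, 164.2 and 264, p53- Myc+ arrays 287.7, 331.9 and 346.9, and p53- Rb- Myc+ arrays 294, 281.6 and 380.3. The arrays with the retrovirus were above all others. Mmp19 rose in both MYC comparisons (1.99 ± 0.20, adjusted p = 3.21e-08 and 0.70 ± 0.20, adjusted p = 0.00821). The Mmp23 probe set read in WT arrays 106.8, 91.63 and 71.69, p53- arrays 56.1, 57.14 and 47.46, p53- Rb- arrays 98.81, 82.6 and 156, p53- Myc+ arrays 29.42, 30.36 and 25.49, and p53- Rb- Myc+ arrays 27.53, 20.77 and 35.78. The Myc+ arrays lay below all others, and Mmp23 fell in both (-0.65 ± 0.19, adjusted p = 0.0122 and -1.52 ± 0.19, adjusted p = 1.4e-06). WT arrays gave Mmp11 intensities of 63.11, 126.1 and 49.56, p53- arrays 34.51, 33.64 and 40.07, p53- Rb- arrays 84.38, 68.17 and 141.2, p53- Myc+ arrays 43.46, 31.04 and 41.26, and p53- Rb- Myc+ arrays 44.61, 48.64 and 44.07. The p53- arrays and both Myc+ groups were low. Mmp11 fell in p53- Rb- Myc+ against p53- Rb- arrays (-0.83 ± 0.24, adjusted p = 0.00768) and did not pass without the Rb- label (0.06 ± 0.24, adjusted p = 0.872).

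Of the 18 Adamts genes, 1 rose and 6 fell without the Rb- label, or 5.56% and 33.3%, beside 13.1% and 20.2% of all genes. With that label 2 rose and 4 fell, or 11.1% and 22.2%, beside 17.6% and 18.7% of all genes. The share that fell with the Rb- label was thus near that of all genes. Adamts1, Adamts4, Adamts5 and Adamts9 encode proteoglycan-cutting enzymes. For Adamts4, WT arrays measured 394.9, 293.3 and 278.7, p53- arrays 163.8, 235.4 and 126.2, p53- Rb- arrays 196.4, 195.8 and 244.1, p53- Myc+ arrays 29.1, 38.27 and 52.97, and p53- Rb- Myc+ arrays 34.1, 38.51 and 50.89. Every Myc+ array was below every other array. Adamts4 fell in both comparisons (-1.75 ± 0.21, adjusted p = 4.73e-07 and -2.00 ± 0.21, adjusted p = 6.36e-08). Adamts1 intensities in WT arrays were 240.4, 254.4 and 293.8, p53- arrays 634.3, 778.6 and 688.5, p53- Rb- arrays 532.8, 667.8 and 350.3, p53- Myc+ arrays 300.7, 378.2 and 297.1, and p53- Rb- Myc+ arrays 425, 372.2 and 413.9. WT arrays were the lowest and p53- arrays among the highest. Adamts1 fell in p53- Myc+ against p53- arrays (-1.07 ± 0.19, adjusted p = 0.000104), and the change with the Rb- label was -0.30 ± 0.19, adjusted p = 0.235. The Adamts5 probe set read in WT arrays 135, 122.3 and 173.8, p53- arrays 186, 297.5 and 201.6, p53- Rb- arrays 212.7, 288.8 and 129.2, p53- Myc+ arrays 108.5, 135.6 and 107.5, and p53- Rb- Myc+ arrays 142.4, 98.21 and 90.25. WT arrays and both Myc+ groups were below all p53- arrays, and all other pairs of groups overlapped. Adamts5, a neighbour of Adamts1 on chromosome 16, fell in both (-0.85 ± 0.23, adjusted p = 0.0061 and -0.80 ± 0.23, adjusted p = 0.00954). WT arrays gave Adamts9 intensities of 89.91, 72.27 and 76.87, p53- arrays 76.98, 60.01 and 79.18, p53- Rb- arrays 51.19, 65.2 and 62.81, p53- Myc+ arrays 99.59, 101 and 73.64, and p53- Rb- Myc+ arrays 99.17, 105.5 and 64.22. All groups of Adamts9 overlapped at least 1 other. It rose in p53- Rb- Myc+ against p53- Rb- arrays (0.46 ± 0.18, adjusted p = 0.0491), but the mean of its 6 probe sets changed by 0.16 (adjusted p = 0.476), and it did not pass in the other MYC comparison (0.28 ± 0.18, adjusted p = 0.255).

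The other Adamts members that passed a MYC comparison, and Mmp21, were below the median of all genes in every group. Adamts15, also a proteoglycan-cutting enzyme, fell in both (-0.82 ± 0.19, adjusted p = 0.00193 and -1.51 ± 0.19, adjusted p = 1.4e-06), with intensities up to 45.28 in p53- Rb- arrays and at most 13.03 in Myc+ arrays. In p53- Rb- Myc+ against p53- Rb- arrays Adamts12 fell (-1.33 ± 0.19, adjusted p = 6.46e-06), and Adamts19 (0.58 ± 0.20, adjusted p = 0.0289) and Mmp21, a gene known from left-right patterning of the embryo (0.75 ± 0.21, adjusted p = 0.00694), rose. Adamts14, which removes the amino-terminal propeptide of fibrillar collagens, rose in p53- Myc+ against p53- arrays (0.63 ± 0.19, adjusted p = 0.0125). Adamts6 and Adamts8 fell there (-0.49 ± 0.18, adjusted p = 0.0392 and -0.56 ± 0.17, adjusted p = 0.0158).

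The 4 inhibitors did not move as one. Timp3 is bound to the matrix and blocks ADAM17 and aggrecan-cutting ADAMTS enzymes as well as metalloproteinases. For Timp3, WT arrays measured 2293, 2385 and 2511, p53- arrays 1351, 1895 and 1271, p53- Rb- arrays 1961, 1877 and 1911, p53- Myc+ arrays 6.933, 21.39 and 4.566, and p53- Rb- Myc+ arrays 13.76, 14.82 and 13.2. The 9 arrays without the retrovirus lay between 1271 and 2511, and the 6 with it between 4.566 and 21.39. Timp3 fell in both MYC comparisons (-5.85 ± 0.19, adjusted p = 2.13e-16 and -6.01 ± 0.19, adjusted p = 1.81e-16), more than any other member in either. Timp1 intensities in WT arrays were 3529, 3581 and 3076, p53- arrays 2498, 3193 and 2152, p53- Rb- arrays 3527, 3352 and 4609, p53- Myc+ arrays 1382, 1528 and 1527, and p53- Rb- Myc+ arrays 1326, 1424 and 1513. Here too all Myc+ arrays were below all others, by a smaller step. Timp1, which binds the Mmp9 proform, fell in both (-0.80 ± 0.17, adjusted p = 0.000744 and -1.41 ± 0.17, adjusted p = 6.31e-07). The Timp2 probe set read in WT arrays 1153, 992 and 938.4, p53- arrays 552.6, 820 and 537.7, p53- Rb- arrays 1059, 1042 and 1249, p53- Myc+ arrays 512.5, 621.9 and 599.2, and p53- Rb- Myc+ arrays 869, 838 and 827.4. Timp2, which also links Mmp14 to the Mmp2 proform on the cell surface, did not pass in either (-0.11 ± 0.17, adjusted p = 0.665 and -0.39 ± 0.17, adjusted p = 0.0796). Its p53- and p53- Myc+ arrays overlapped. WT arrays gave Timp4 intensities of 103.5, 116.2 and 70.5, p53- arrays 80.02, 83.74 and 108.6, p53- Rb- arrays 68.08, 63.37 and 62.9, p53- Myc+ arrays 109.8, 112.7 and 84.96, and p53- Rb- Myc+ arrays 108.9, 99.16 and 97.15. Timp4 rose in p53- Rb- Myc+ against p53- Rb- arrays (0.54 ± 0.17, adjusted p = 0.0173), and its change in p53- Myc+ against p53- arrays was 0.15 ± 0.17, adjusted p = 0.558.

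**Figure D4:**
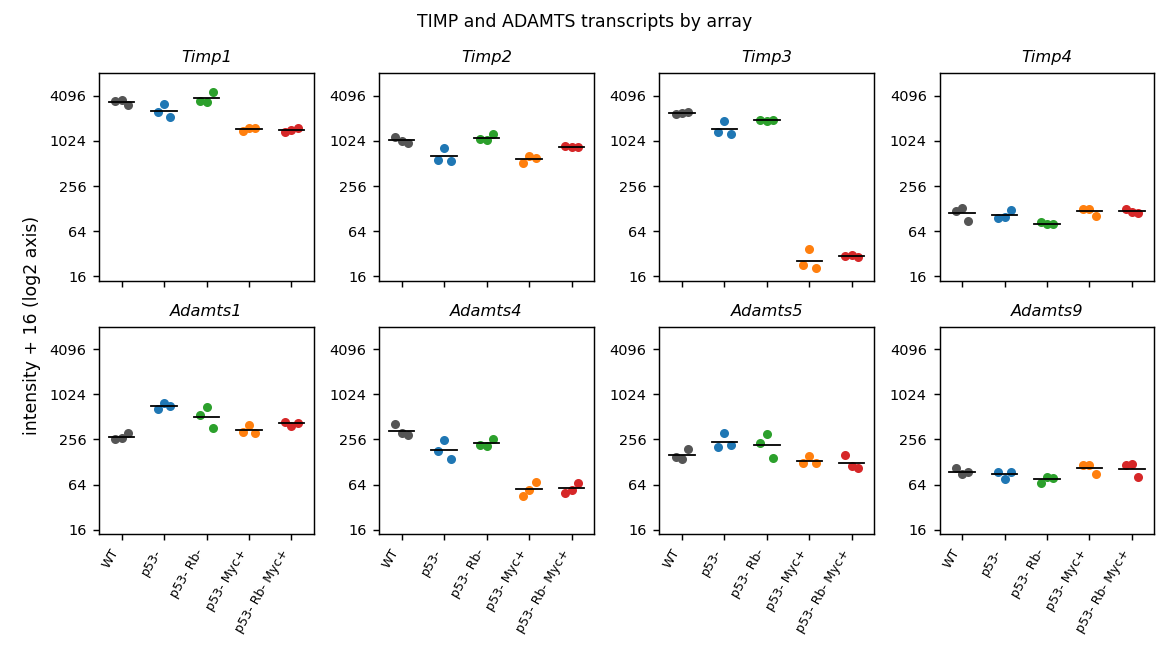
Intensity plus 16 of the 4 Timp genes and of Adamts1, Adamts4, Adamts5 and Adamts9 on a log2 axis, with 1 point for each array and a bar at the mean of 3. Timp3 falls from means of 1506 and 1916 in p53- and p53- Rb- arrays to 10.96 and 13.93 in the Myc+ groups, while all Timp2 arrays lie between 512.5 and 1249.

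Genes that regulate or meet these enzymes changed with the label as well. Of 13 activators and regulators, 2 rose and 8 fell without the Rb- label, and 0 rose and 9 fell with it. Plau, the urokinase that makes the metalloproteinase-activating plasmin, fell, with changes of -3.92 and -2.49 on the log2 scale. Its receptor Plaur fell, with changes of -2.14 and -1.44, and Cd44, a surface receptor that docks Mmp9, fell, with changes of -5.67 and -4.54. Tfpi2, a matrix-bound inhibitor of serine proteases, fell, with changes of -3.00 and -5.11. Of 20 matrix substrates, 7 rose and 5 fell without the Rb- label and 5 rose and 9 fell with it. Col4a1, a chain of basement membrane collagen, changed by -2.67 ± 0.16, adjusted p = 4.82e-12 and -2.63 ± 0.16, adjusted p = 6.34e-12, and Fn1, the fibronectin gene, by -2.31 ± 0.14, adjusted p = 1.26e-11 and -2.94 ± 0.14, adjusted p = 1.88e-13.

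Cell type markers moved in the same comparisons. All 8 luminal markers fell in both, and of the 8 basal markers 1 rose and 6 fell without the Rb- label and 0 rose and 7 fell with it. Cdh1 averaged 1587 in p53- and 19.96 in p53- Myc+ arrays. Of 7 endothelial markers 0 rose and 4 fell without that label, and 1 rose and 3 fell with it. Of 13 fibroblast markers 8 rose and 2 fell without the Rb- label, and 4 rose and 7 fell with it. Their summed intensity was 2872 to 3376 in p53-, 5296 to 6046 in p53- Myc+, 4391 to 6205 in p53- Rb- and 3459 to 3900 in p53- Rb- Myc+ arrays. The lowest mean of these markers in a Myc+ group was that of Pecam1, 2.586 in p53- Rb- Myc+ arrays. The lower quartile of all gene values was 26.45. The part of cell composition in the member changes was not tested.

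When each array was centred on its median, the members that rose and fell without the Rb- label became 6 and 13, and with quantile normalization 6 and 14, and centring took the all-gene median from -0.09 to 0.11. With 1 in place of 16 added before the log, the call of Adamts6 ended (adjusted p = 0.0647). With centred arrays, the calls of Adamts6, Adamts8, Mmp23 and Mmp24 ended (adjusted p = 0.214, 0.122, 0.0846 and 0.201). With quantile normalization, the calls of Adamts6, Adamts8 and Mmp23 ended (adjusted p = 0.198, 0.21 and 0.094). The calls of Adamts6 and Mmp24 ended with a replicate block and a fit of these groups alone (adjusted p = 0.0692 and 0.0576). The calls of Adamts6, Adamts8 and Mmp24 ended without p53- replicate 1 (adjusted p = 0.112, 0.0837 and 0.0646). Adamts5 and Mmp24 did not pass without p53- replicate 2 (adjusted p = 0.0502 and 0.1). The call of Adamts6 ended without p53- replicate 3 (adjusted p = 0.134). Adamts6 did not pass without p53- Myc+ replicate 1 (adjusted p = 0.0652). The calls of Adamts14 and Mmp24 ended without p53- Myc+ replicate 2 (adjusted p = 0.0913 and 0.0693). Adamts6 did not pass without p53- Myc+ replicate 3 (adjusted p = 0.185).

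In the comparison with the Rb- label, centred arrays gave 7 rising and 15 falling members and quantile normalization 7 and 16. With 1 in place of 16 added before the log, the call of Adamts9 ended (adjusted p = 0.0625). With the mean of all probe sets, the call of Adamts9 ended (adjusted p = 0.476). The call of Adamts9 ended with a replicate block (adjusted p = 0.0511). Adamts19, Adamts9, Mmp16 and Mmp19 did not pass without p53- Rb- replicate 1 (adjusted p = 0.123, 0.18, 0.202 and 0.06). The calls of Adamts5 and Adamts9 ended without p53- Rb- replicate 2 (adjusted p = 0.0833 and 0.0611). Adamts19, Adamts9 and Mmp11 did not pass without p53- Rb- replicate 3 (adjusted p = 0.0716, 0.0742 and 0.0744). The calls of Adamts9, Mmp16 and Timp4 ended without p53- Rb- Myc+ replicate 1 (adjusted p = 0.166, 0.087 and 0.0643). Adamts19, Adamts9, Mmp16 and Mmp21 did not pass without p53- Rb- Myc+ replicate 2 (adjusted p = 0.185, 0.211, 0.0821 and 0.0653). The call of Mmp19 ended without p53- Rb- Myc+ replicate 3 (adjusted p = 0.05).

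Within the arrays labelled Myc+, the Rb- label was accompanied by few changes. In p53- Rb- Myc+ against p53- Myc+ arrays 0 members rose and 2 fell, or 4.55% of the 44, beside 4.69% of all genes (3.29% rose and 1.4% fell), a share near the background. The arrays did not overlap for 9 members, beside 20.5% of all genes. The 2 that fell were Mmp3 and Mmp2. Mmp3 went from 341, 322.5 and 377.2 to 37.05, 24.64 and 30.28 (-2.97 ± 0.18, adjusted p = 8.17e-11). Mmp2 went from 1008, 1128 and 851.8 to 422.1, 423.4 and 369.8 (-1.26 ± 0.17, adjusted p = 2.7e-05). The groups did not overlap for either gene, and both calls held in every alternative tried. The other 9 of the 10 chromosome 9 neighbours did not pass, Mmp10 with -0.52 ± 0.19, adjusted p = 0.164 and Mmp13 with -0.09 ± 0.20, adjusted p = 0.895. Timp3 and Mmp9 did not pass either (0.20 ± 0.19, adjusted p = 0.716 and -0.53 ± 0.16, adjusted p = 0.0699). With quantile normalization 1 member rose and 3 fell. Of 13 fibroblast markers 0 rose and 6 fell, with summed intensities of 5296 to 6046 in p53- Myc+ and 3459 to 3900 in p53- Rb- Myc+ arrays. Dpt averaged 456.3 and 137.7, and Pdgfra 617.2 and 225.8. Of 8 luminal markers 2 rose and 0 fell. The part of these cells in the fall of Mmp2 and Mmp3 was not tested.

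Without the retrovirus, the Rb- label went with a broader change. In p53- Rb- against p53- arrays 9 members rose and 5 fell, 31.8% of the 44 in all, beside 19.8% of all genes (9.36% rose and 10.4% fell). The arrays did not overlap for 18 members, beside 40% of all genes. The collagen- and gelatin-cutting Mmp2 and Mmp14, with Mmp19, Mmp11 and Mmp23, rose. So did the inhibitors Timp1 and Timp2, Adamts12 and Adamts15. Mmp2 went from 247.6, 269.1 and 242.6 to 563.2, 624.4 and 887 (1.37 ± 0.17, adjusted p = 1.19e-05), Mmp19 changed by 1.27 ± 0.20, adjusted p = 0.000126 and Mmp11 by 1.08 ± 0.24, adjusted p = 0.00247, with no overlap of the groups for any of the 3. Mmp14 rose by 0.72 ± 0.15, adjusted p = 0.00143, Mmp23 by 0.85 ± 0.19, adjusted p = 0.00381, Timp2 by 0.82 ± 0.17, adjusted p = 0.00184 and Timp1 by 0.55 ± 0.17, adjusted p = 0.0261. Mmp12 (-0.64 ± 0.19, adjusted p = 0.0187), Mmp16 (-0.57 ± 0.19, adjusted p = 0.043), Mmp1b, Mmp21 and Adamts6 fell. The median change of the members was -0.08, equal to that of all genes.

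Fibroblast markers moved with Mmp2 here, as 8 of 13 rose and 0 fell, with summed intensities of 2872 to 3376 in p53- and 4391 to 6205 in p53- Rb- arrays. Twist2 averaged 181.9 and 422.9. Markers of other cell types rose as well, 3 of 8 luminal, 2 of 8 basal, 2 of 7 endothelial and 1 of 8 leukocyte markers, and 0 of these fell. Of 20 matrix substrates 8 rose and 1 fell, among them Col1a1 (1.43 ± 0.16, adjusted p = 2.77e-06) and Col1a2 (1.41 ± 0.16, adjusted p = 6.01e-06). Their part in the change of Mmp2 was not tested. With 1 in place of 16 added before the log, the calls of Adamts12, Adamts15, Mmp12, Mmp16, Mmp1b and Timp1 ended (adjusted p = 0.0704, 0.262, 0.211, 0.0783, 0.0575 and 0.052). With centred arrays, the call of Mmp16 ended (adjusted p = 0.07). The call of Mmp16 ended with a replicate block (adjusted p = 0.0503). The calls of Mmp12, Mmp16 and Timp1 ended with a replicate block and a fit of these groups alone (adjusted p = 0.0535, 0.138 and 0.101). The calls of Mmp12, Mmp16 and Timp1 ended without p53- replicate 1 (adjusted p = 0.053, 0.252 and 0.083). Adamts6, Mmp12, Mmp16 and Timp1 did not pass without p53- replicate 3 (adjusted p = 0.0588, 0.0872, 0.0735 and 0.162). The call of Mmp16 ended without p53- Rb- replicate 1 (adjusted p = 0.242). Adamts6, Mmp12, Mmp16 and Timp1 did not pass without p53- Rb- replicate 3 (adjusted p = 0.0598, 0.141, 0.0689 and 0.157).

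The difference between the 2 Rb comparisons, which share no array, was tested in the same fit. It passed for 9 members, 3 with a positive and 6 with a negative difference, or 20.5% of the 44 beside 13.6% of all genes (8.78% positive and 4.86% negative). Mmp3 had the largest difference (-3.16 ± 0.25, adjusted p = 1.94e-08), from 0.19 without the retrovirus to -2.97 with it. Mmp2 followed (-2.63 ± 0.24, adjusted p = 1.71e-07), from 1.37 to -1.26, so its direction turned. Mmp19 (-1.29 ± 0.28, adjusted p = 0.00364), Mmp14 (-1.05 ± 0.21, adjusted p = 0.00172), Adamts12 and Mmp23 had negative differences as well, and Mmp1b, Mmp21 and Mmp12 positive ones. Of the 13 fibroblast markers 9 had a negative and 1 a positive difference, Dpt at -2.56 ± 0.28, adjusted p = 1.67e-06 and Pdgfra at -2.26 ± 0.27, adjusted p = 6.95e-06. Their part in the difference of Mmp2 was not tested. With 1 in place of 16 added before the log, the calls of Adamts12, Mmp1b and Mmp23 ended (adjusted p = 0.0584, 0.0714 and 0.0754). With quantile normalization, the call of Mmp21 ended (adjusted p = 0.0697). The call of Mmp23 ended without p53- replicate 1 (adjusted p = 0.0612). Mmp23 did not pass without p53- replicate 3 (adjusted p = 0.0991). The call of Mmp23 ended without p53- Rb- replicate 1 (adjusted p = 0.0515). Mmp12, Mmp21 and Mmp23 did not pass without p53- Rb- replicate 3 (adjusted p = 0.055, 0.064 and 0.123). The call of Mmp23 ended without p53- Myc+ replicate 1 (adjusted p = 0.0629). Mmp23 did not pass without p53- Myc+ replicate 2 (adjusted p = 0.0635). The call of Mmp21 ended without p53- Myc+ replicate 3 (adjusted p = 0.0543). Mmp1b and Mmp23 did not pass without p53- Rb- Myc+ replicate 1 (adjusted p = 0.0527 and 0.0718). The calls of Mmp12, Mmp21 and Mmp23 ended without p53- Rb- Myc+ replicate 2 (adjusted p = 0.0535, 0.0725 and 0.115).

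**Figure D5:**
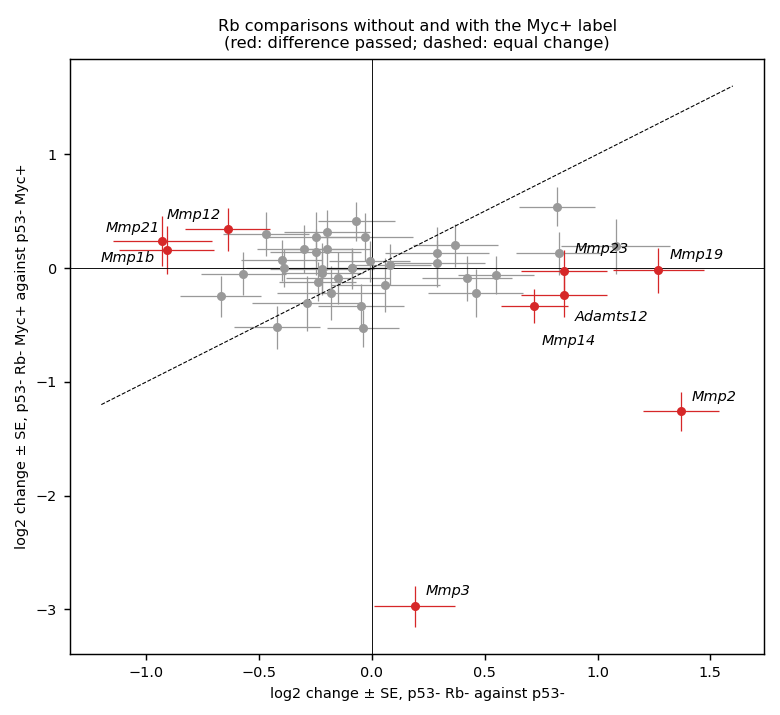
Log2 change with the Rb- label without the retrovirus (horizontal axis) and with it (vertical axis) for each of the 44 members, with those whose difference passed marked and named. Mmp3 lies at 0.19 and -2.97 and Mmp2 at 1.37 and -1.26, apart from the other members.

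Loss of p53 alone went with changes in both directions. In p53- against WT arrays 8 members rose and 9 fell, 38.6% of the 44 in all, beside 29% of all genes (19.3% rose and 9.72% fell). The arrays did not overlap for 19 members, beside 40.3% of all genes. The proteoglycanase Adamts1, the stromelysin Mmp10 and the gelatinase Mmp9 rose, and Mmp2, Mmp11, Adamts4, Timp2 and Timp3 fell. Adamts1 went from 240.4, 254.4 and 293.8 to 634.3, 778.6 and 688.5 (1.36 ± 0.19, adjusted p = 2.68e-05), and Mmp10 from 68.58, 113.8 and 105.9 to 232.4, 206.8 and 281.6 (1.21 ± 0.19, adjusted p = 0.000107). Mmp9 rose by 0.63 ± 0.16, adjusted p = 0.00668. Neither group overlapped the other for these 3 genes. Mmp2 changed by -1.02 ± 0.17, adjusted p = 0.000168, Adamts4 by -0.85 ± 0.21, adjusted p = 0.00438, Timp2 by -0.70 ± 0.17, adjusted p = 0.00428, Timp3 by -0.69 ± 0.19, adjusted p = 0.0108 and Mmp11 by -0.80 ± 0.24, adjusted p = 0.0141.

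Among the dimmer members, Adamts6 rose by 1.02 ± 0.18, adjusted p = 0.000261, Mmp1b by 1.04 ± 0.22, adjusted p = 0.00127 and Mmp21 by 0.89 ± 0.21, adjusted p = 0.0033, and Mmp8 fell (-1.02 ± 0.21, adjusted p = 0.00127). Adamts8 (0.59) and Adamts14 (0.57) rose, and Mmp7 (-0.73), Mmp23 (-0.60) and Mmp19 (-0.56) fell. The 3 WT arrays of Mmp7 lay at 71.77, 38.72 and 17.51 and overlapped the p53- arrays. Mmp12 did not pass (0.07 ± 0.19, adjusted p = 0.808). Leukocyte markers moved in this comparison, with 1 of 8 rising and 4 falling, and summed intensities of 1971 to 2392 in WT and 546.6 to 684.9 in p53- arrays. Lyz2 averaged 288.9 and 17.92 and Cd14 1566 and 327.8 in WT and p53- arrays. The pan-leukocyte marker Ptprc went the other way, with means of 19.57 and 43.1. Of 13 fibroblast markers 2 rose and 5 fell. Col6a3 changed by -1.52 ± 0.22, adjusted p = 2.97e-05 and Dpt by -0.94 ± 0.20, adjusted p = 0.00123. Thy1 was higher in p53- arrays, with means of 132.5 in WT and 354.5 in p53- arrays, as was Twist1, with 63.34 and 107.3. The summed intensities of the 13 markers overlapped at 3253 to 3704 and 2872 to 3376. Of 8 luminal markers 0 rose and 3 fell, and of 8 basal markers 0 rose and 3 fell, among them Muc1 (-3.47 ± 0.19, adjusted p = 7.22e-11) and Trp63 (-0.68 ± 0.18, adjusted p = 0.00714). The luminal sums overlapped, at 12850 to 13250 in WT and 12460 to 13280 in p53- arrays, and Epcam averaged 1627 and 1634. The basal sums were 9146 to 9400 and 6382 to 7984. The part of these cell types in the falls of Mmp2 and of Mmp8, a neutrophil enzyme, was not tested. With 1 in place of 16 added before the log, the calls of Mmp19, Mmp9 and Timp3 ended (adjusted p = 0.0566, 0.0578 and 0.18). With 64 added before the log, the calls of Adamts14 and Mmp19 ended (adjusted p = 0.0881 and 0.0624). With centred arrays, the call of Adamts14 ended (adjusted p = 0.0537). With quantile normalization, the calls of Adamts14 and Adamts8 ended (adjusted p = 0.138 and 0.11). The calls of Mmp19 and Mmp7 ended with a replicate block and a fit of these groups alone (adjusted p = 0.0694 and 0.0595). Mmp19, Mmp23 and Mmp7 did not pass without WT replicate 1 (adjusted p = 0.0669, 0.105 and 0.175). The calls of Adamts14, Adamts8, Mmp11, Mmp23 and Mmp7 ended without WT replicate 2 (adjusted p = 0.0768, 0.0675, 0.116, 0.0609 and 0.0516). Adamts14, Adamts8 and Mmp19 did not pass without WT replicate 3 (adjusted p = 0.111, 0.0515 and 0.122). The calls of Adamts14, Adamts8, Mmp19 and Mmp7 ended without p53- replicate 1 (adjusted p = 0.0761, 0.0709, 0.159 and 0.0566). Mmp7 did not pass without p53- replicate 2 (adjusted p = 0.0664). The calls of Adamts14, Mmp19, Mmp23 and Timp3 ended without p53- replicate 3 (adjusted p = 0.0851, 0.136, 0.104 and 0.0718).

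Cells without p53 and Rb were also set against WT, a comparison that shares its arrays with the 2 above. In p53- Rb- against WT arrays 7 members rose and 2 fell, 20.5% of the 44 beside 14.6% of all genes (10.8% rose and 3.75% fell). The arrays did not overlap for 21 members, beside 31.3% of all genes. Adamts1 rose (0.89 ± 0.19, adjusted p = 0.00326), as did Adamts12 (0.80 ± 0.19, adjusted p = 0.00695), Mmp10 (0.78 ± 0.19, adjusted p = 0.00918), Mmp19 (0.71 ± 0.20, adjusted p = 0.0194), Mmp9 (0.59 ± 0.16, adjusted p = 0.0186), Adamts15 and Mmp14, while Mmp16 (-0.77 ± 0.19, adjusted p = 0.00959) and Mmp12 fell. Mmp2, at 503.9, 529.1 and 553.1 in WT and 563.2, 624.4 and 887 in p53- Rb- arrays, did not pass (0.35 ± 0.17, adjusted p = 0.183). Timp2 (0.12 ± 0.17, adjusted p = 0.71) and Timp3 (-0.32 ± 0.19, adjusted p = 0.304) did not pass. Of 13 fibroblast markers 8 rose and 0 fell, with summed intensities of 3253 to 3704 in WT and 4391 to 6205 in p53- Rb- arrays. Of 20 matrix substrates 9 rose and 1 fell. Of 8 leukocyte markers 0 rose and 2 fell, of 8 luminal markers 0 and 1, and of 8 basal markers 2 and 1. The part of these cells in the member changes was not tested. Arrays centred on their medians gave 6 rising and 3 falling members, and quantile normalization 7 and 4. The number of passing members was 5 without WT replicate 1, 5 without WT replicate 2, 3 without p53- Rb- replicate 1 and 5 without p53- Rb- replicate 2. With 1 in place of 16 added before the log, the calls of Adamts12, Adamts15, Mmp10, Mmp12, Mmp19 and Mmp9 ended (adjusted p = 0.101, 0.468, 0.0805, 0.3, 0.0504 and 0.114). With centred arrays, the call of Mmp14 ended (adjusted p = 0.0504). With array weights, the call of Mmp12 ended (adjusted p = 0.0635). The calls of Adamts15, Mmp10, Mmp12, Mmp14 and Mmp9 ended with a replicate block and a fit of these groups alone (adjusted p = 0.0655, 0.052, 0.133, 0.118 and 0.0769). The calls of Adamts15, Mmp10, Mmp12, Mmp14, Mmp19 and Mmp9 ended without WT replicate 1 (adjusted p = 0.0613, 0.062, 0.0783, 0.0612, 0.0553 and 0.0668). Adamts15, Mmp12, Mmp14, Mmp19 and Mmp9 did not pass without WT replicate 2 (adjusted p = 0.0503, 0.0515, 0.107, 0.0851 and 0.0799). The calls of Adamts15 and Mmp12 ended without WT replicate 3 (adjusted p = 0.114 and 0.13). Adamts15, Mmp10, Mmp12, Mmp14, Mmp16 and Mmp9 did not pass without p53- Rb- replicate 1 (adjusted p = 0.107, 0.063, 0.0559, 0.0907, 0.0831 and 0.0646). The calls of Adamts15, Mmp12, Mmp14 and Mmp9 ended without p53- Rb- replicate 2 (adjusted p = 0.0886, 0.0523, 0.0733 and 0.0633). Adamts15, Mmp12, Mmp14 and Mmp19 did not pass without p53- Rb- replicate 3 (adjusted p = 0.068, 0.209, 0.053 and 0.118).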

How the data were processed

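The authors deposited 1 intensity for each probe set and array, and the submitters' processing notes name Affymetrix Expression Console 1.1. How probes were summarised and scaled is not given in the sources used here. Intensities ran from 4.11e-05 to 8348.1 with no negatives, so they were taken as linear. Of 35556 probe sets, 21789 named 1 gene. They stood for 19938 genes, and where a gene had several the brightest on average was kept.

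The members and gene lists were chosen with earlier results of these data known. The 5 group means of log2(intensity + 16) were fitted jointly over the 15 arrays (limma 3.58.1, R 4.3.3, moderated 2-sided tests with 10 residual degrees of freedom), with Benjamini-Hochberg adjustment over all genes at 0.05. The method was tested on simulated data. Every member could be named, and values on all arrays were given for those that passed in a comparison of 2 groups and reached the median of all genes, 63.21, in a group. Of other lists, up to 4 genes with the smallest p in a comparison were named, and cell type markers. Symbols and gene order came from RefSeq on GRCm38.p6. The number of arrays limits the precision, and the labels give no batch. The alternatives were 1 or 64 added before the log, centring, quantile normalization, a filter on dim genes, the mean of all probe sets, array weights, a replicate block and each array left out in turn.

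Arrays of the same number shared deviations in p53- Rb- Myc+ against p53- Myc+ arrays (r = 0.102, 0.192 and 0.379). The printed values there come from the joint fit without a block, and the fit with the replicate number as a block was an alternative. The pairing comes from the values and not the labels, and no other comparison had every r above 0.1.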

Additional observations from a re-analysis of the deposited data

Results flagged for a closer look

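For 9 members the change with the Rb- label differed between arrays with and without the MYC retrovirus, by limma's test of that difference. Negative differences were found for Mmp3 (-3.16), Mmp2 (-2.63), Mmp19 (-1.29), Adamts12 (-1.10), Mmp14 (-1.05) and Mmp23 (-0.87). Mmp1b (1.17), Mmp21 (1.07) and Mmp12 (0.98) had positive ones. Mmp2 was the one of these that passed in both Rb comparisons, in opposite directions (1.37 without the retrovirus and -1.26 with it). Mmp3 passed with the retrovirus alone. The other 7 passed without the retrovirus and did not pass with it. Adamts12, Mmp1b and Mmp21 were below the median of all genes, 63.21, in every group.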

How the results depend on the processing

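Of 92 member calls, 50 held in every alternative run for them, 42 ended in at least 1, 35 of these when 1 array was left out, and 0 reversed. Mmp2 and Mmp3 kept their calls in p53- Rb- Myc+ against p53- Myc+ arrays throughout.

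The count of passing members moved by over 1.5 times in these cases. With only genes at or above the median level, which tests 24 of the 44, it was 9 in place of 17 in p53- against WT, 7 in place of 14 in p53- Rb- against p53- and 4 in place of 2 in p53- Rb- Myc+ against p53- Myc+ arrays. With 1 added before the log it was 8 in p53- Rb- against p53- and 3 in place of 9 in p53- Rb- against WT. With array weights it was 23 in p53- Rb- against p53-, 18 in p53- Rb- against WT, 4 in p53- Rb- Myc+ against p53- Myc+ and 18 in place of 9 for the difference of the Rb comparisons. The corresponding counts of genes with array weights were 8518 in place of 3950, 5254 in place of 2903 and, for the difference, 5404 in place of 2719. Quantile normalization gave 4 members in p53- Rb- Myc+ against p53- Myc+ arrays. The cause was not tested, except that the filter tests fewer members.

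With arrays left out in turn, passing members ranged from 12 to 18 in p53- against WT, 10 to 15 in p53- Rb- against p53-, 3 to 13 in p53- Rb- against WT, 17 to 20 in both MYC comparisons, 2 to 3 in p53- Rb- Myc+ against p53- Myc+ and 6 to 11 for the difference. Passing genes ranged from 3470 to 6094, 2098 to 4725, 1697 to 3167, 649 to 867 in p53- Rb- Myc+ against p53- Myc+ and 1762 to 3234 for the difference.

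With a replicate block and a fit of the compared groups alone, 4 members and 1465 genes passed in p53- Rb- against WT arrays. In the paired p53- Rb- Myc+ and p53- Myc+ arrays the block left 2 falling members in both fits, with 931 and 954 passing genes in place of 935. Other calls that the block ended are given with their comparison.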

Other observations

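ADAM sheddases, membrane relatives of the members that release surface proteins, were also uneven. Of 11, 3 rose and 3 fell in p53- Myc+ against p53- arrays, and 1 rose and 4 fell in p53- Rb- Myc+ against p53- Rb- arrays. Adam8 changed by -3.81 and -2.33 and Adam12 by -1.15 and -2.16 on the log2 scale, and all 4 changes passed in limma. Adam23 rose by 1.87 without the Rb- label and fell by 1.20 with it. Its difference between the Rb comparisons was -3.07. ADAMTS-like proteins, which resemble ADAMTS enzymes without a protease domain, had 0 of 6 rising and 3 falling without the Rb- label and 1 rising and 3 falling with it. Papln fell by 2.09 and 1.52.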
